A study of Mus musculus with 9 samples.

Results

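The genes described here encode 3 kinds of enzyme that write or remove marks on histones: lysine and arginine methyltransferases, lysine demethylases and histone deacetylases. They were chosen by symbol, as the rows of the deposited expression table named Kmt, Setd, Setdb, Ehmt, Prmt, Kdm or Hdac with a number, and 56 of the 48640 rows had such a name. The table came from mouse embryonic fibroblasts that were reprogrammed and cultured for 75 days after lentiviral transduction, and it held 9 RNA libraries in 3 groups of 3. YAP colonies were mCherry-marked colonies (genotype YAPmCherry+) from cultures transduced with Yes-associated protein (YAP), the co-activator at the end of the Hippo pathway, and their labels call them non-pluripotent. YAP-culture induced pluripotent stem cells (iPSCs; genotype Oct4:GFP+YAPmCherry+) were pluripotent colonies from the same kind of culture. Their titles state that YAP overexpression had been lost, while the genotype and the column headings mark them as YAP+, and which of these holds was not settled. Control iPSCs (genotype Oct4:GFP+) came from cultures transduced with an empty vector. Reprogramming medium contained doxycycline at 1 µg/mL in all cultures. Doxycycline was kept on in the YAP colonies, and colonies and iPSCs were all grown on feeder cells, whose RNA can be in the libraries. The labels do not say that the replicates of a group were separate cultures or clones, and the p-values therefore cover no more than library-to-library spread, which may be technical.

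Values were FPKM (fragments per kilobase of transcript, scaled to the mapped fragments of the library), which are levels per length and can be compared between genes. They summed to between 509321 and 634471 per library, and the read depth is unknown. Of the 56 genes, 51 had a mean of at least 1 FPKM over the 9 libraries and were tested. A gene was called where limma, fitted over all 13808 rows that passed the same filter, gave a Benjamini-Hochberg adjusted p under 0.05 and the log2 fold change was 1 or more in size. Fold changes are differences of log2(FPKM + 1), which understate the change of low genes. "Rose" and "fell" are used only for called genes. Yap1 RNA averaged 61.0 ± 1.97 FPKM in the YAP colonies, 36.1 ± 3.36 FPKM in the YAP-culture iPSCs and 42.5 ± 2.86 FPKM in the control iPSCs (SD, n = 3 each), a difference under the fold threshold in every comparison. The 8 pluripotency markers summed to 422 to 502 FPKM in the colonies, 5476 to 6223 FPKM in the YAP-culture iPSCs and 4637 to 5764 FPKM in the control iPSCs, and none was at 0 in a whole group. The iPSC sums were mostly Dppa5a, at 4660 FPKM in the YAP-culture and 3947 FPKM in the control iPSCs, against 4.11 FPKM in the colonies. Zfp42 averaged 0.355 FPKM in the colonies, while Pou5f1 averaged 281 FPKM there, above the 156 FPKM of the YAP-culture iPSCs and the 203 FPKM of the control iPSCs. Nanog and Sox2 averaged 132 and 33.7 FPKM in the colonies, 308 and 146 FPKM in the YAP-culture iPSCs and 386 and 166 FPKM in the control iPSCs. The 12 feeder or fibroblast markers summed to 39.2 to 46.1 FPKM in the colonies, 5.44 to 10.9 FPKM in the YAP-culture iPSCs and 5.62 to 8.01 FPKM in the control iPSCs, and Fap was listed at 0 in all 6 iPSC libraries. In the colonies the sum was mostly Thy1, at 22.9 FPKM, and Dcn, at 8.63 FPKM. Twist1 and Pdgfrb were lower there, at 0.0731 and 0.315 FPKM in the colonies, 0.773 and 0.905 FPKM in the YAP-culture iPSCs and 0.485 and 0.931 FPKM in the control iPSCs. The 8 cycling-cell markers summed to 329 to 439.6 FPKM in the colonies, 651 to 667 FPKM in the YAP-culture iPSCs and 635 to 713 FPKM in the control iPSCs. Not all 8 were lower in the colonies: Mki67 averaged 48.1 FPKM in the colonies, 37.0 FPKM in the YAP-culture iPSCs and 38.9 FPKM in the control iPSCs, and Pcna averaged 51.5, 56.6 and 56.5 FPKM. The 5 leukocyte markers summed to 124 to 151, 53.2 to 95.6 and 31.1 to 41.6 FPKM in the same order of groups. Ptprc was at most 0.0989 FPKM in any library. In the colonies this sum was mostly Laptm5, which averaged 124, 33.9 and 16.8 FPKM in the same order. Not all 5 were higher in the colonies: Cd68 averaged 2.805, 13.72 and 13.97 FPKM, and Lyz2 averaged 9.07, 20.8 and 6.06 FPKM. The 5 endothelial markers summed to 41.9 to 44.5, 35.995 to 48.1 and 38.6 to 46.6 FPKM, mostly Tek in the colonies and mostly Pecam1 in the iPSCs. The part of other cell types in the results was not tested, and in bulk RNA fewer cells of a type cannot be told apart from less RNA per cell.

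Histone methyltransferases of the SET family place methyl groups on lysines, and the effect depends on the residue: methylated lysine 4 of histone H3 (H3K4) marks promoters and enhancers in use, whereas methylated H3K9 and H3K27 mark silent chromatin. Demethylases of the KDM families remove the same marks with a flavin or an iron cofactor. Deacetylases (HDACs) take acetyl groups off histones and other proteins, mostly inside corepressor complexes. In reprogramming, H3K9 methylation is known as a barrier to reaching pluripotency, and several demethylases and deacetylases are known to change how efficiently fibroblasts become iPSCs.

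The genes called in the YAP colonies, past both the p and the fold threshold, were mostly higher than in either kind of iPSC. Against the YAP-culture iPSCs, 11 of 51 tested genes were called (21.6%, against 30.3% of all tested rows). Of these, 9 rose (17.6%, against 15.8% of all rows called higher) and 2 fell (3.92%, against 14.5% of all rows called lower). Against the control iPSCs, 10 were called (19.6%, against 31.8% of all rows), of which 8 rose (15.7%, against 14.9%) and 2 fell (3.92%, against 17.0%). Kmt2e, Setd7, Kdm2a, Kdm6b, Kdm7a, Hdac4 and Hdac7 rose in both comparisons, which is 13.7% of the tested genes beside 12.8% of all rows. Setd6 fell in both, 1.96% beside 12.7% of all rows. The share that rose was thus close to the background and the share that fell was below it. Both comparisons use the same 3 colony libraries. Without the third YAP-culture iPSC library, 18 of 51 genes were called against that group, 15 of them higher. Over all 13808 rows, 4421 were then called either way.

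**Figure D1:**
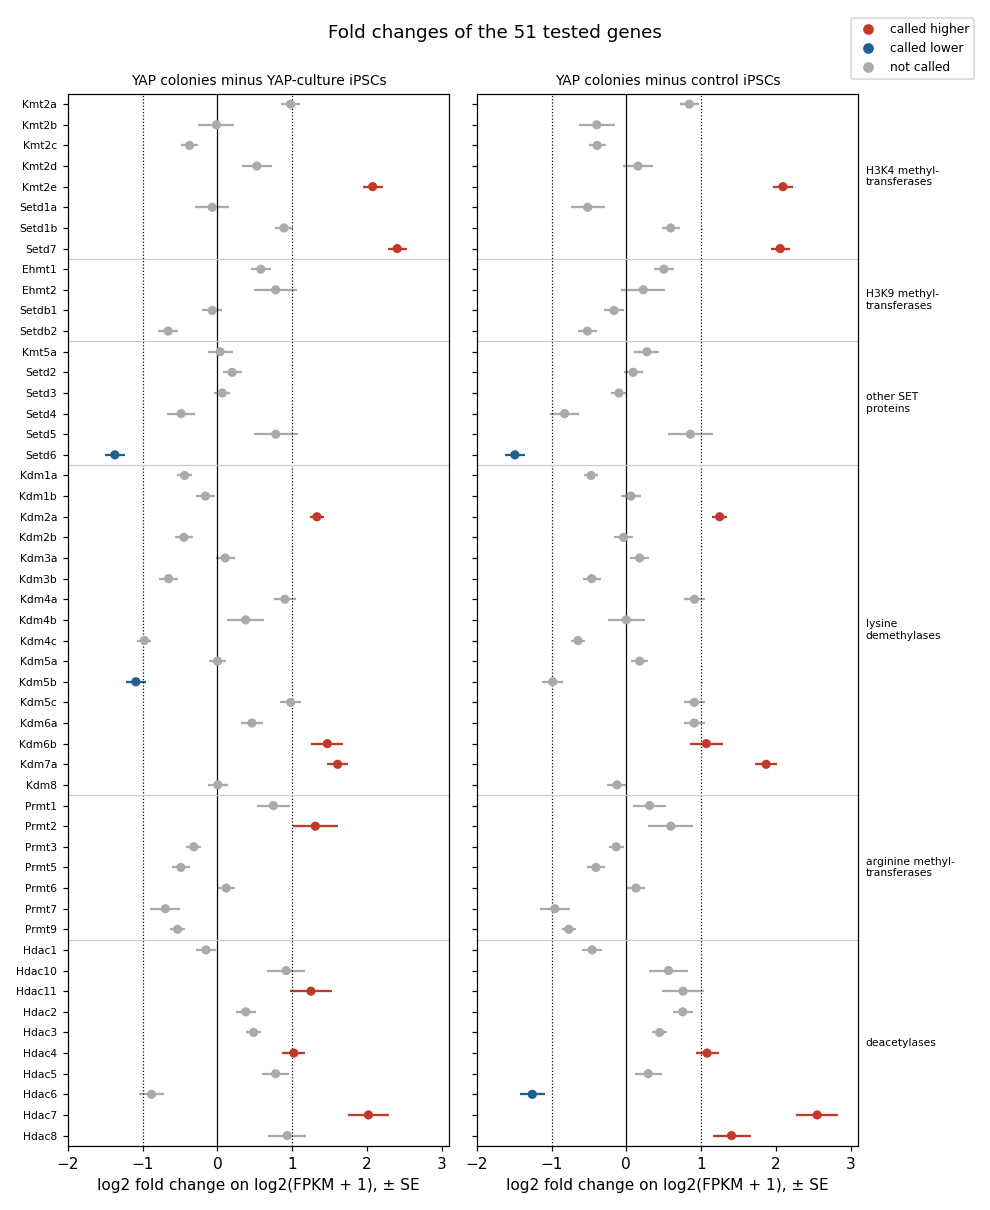
Log2 fold change on log2(FPKM + 1) of each of the 51 tested genes, with its standard error as a bar, in YAP colonies against YAP-culture iPSCs (left) and against control iPSCs (right), grouped by enzyme type. Dotted lines mark the fold threshold of 1 in each direction; 9 genes in the left panel and 8 in the right are called higher (red), and 2 in each are called lower (blue).

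Many more genes differed by less than the fold threshold. At an adjusted p under 0.05 and any fold, 36 of 51 genes differed from the YAP-culture iPSCs (70.6%, against 59.4% of all rows) and 31 differed from the control iPSCs (60.8%, against 61.2%). The colony libraries lay wholly above all 6 iPSC libraries in 20 genes (39.2%, against 28.1% of all rows) and wholly below them in 12 (23.5%, against 27.5%). The median log2 fold change over the 51 genes was 0.20 against the YAP-culture iPSCs and 0.18 against the control iPSCs, beside 0.02 and -0.07 over all tested rows.

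The promoters of genes that rose are shown for the match to the recognition sequence of the TEAD factors, through which YAP binds DNA. GGAATG on either strand, in the 250 bases before and 50 after a transcript start of RefSeq (GRCm38.p6), was present at 3 of the 10 called genes with a promoter in the table, and the 3 are Hdac7, Hdac8 and Hdac11. It was present at 2 of the 30 matched genes that were tested and not called, and at 4481 of the 27025 genes of the table. Each is printed 5′ to 3′ on its own strand, with the match in capitals, beside that of Setd7, the gene with the largest fold change against the YAP-culture iPSCs, which holds no match.
Hdac7, chr15:97844453-97844752, minus strand: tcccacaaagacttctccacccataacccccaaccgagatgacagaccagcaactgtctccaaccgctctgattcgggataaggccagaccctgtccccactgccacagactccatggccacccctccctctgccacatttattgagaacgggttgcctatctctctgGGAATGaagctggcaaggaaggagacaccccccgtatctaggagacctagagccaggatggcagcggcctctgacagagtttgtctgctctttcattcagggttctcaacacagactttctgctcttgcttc
Hdac8, chrX:102505109-102505408, minus strand: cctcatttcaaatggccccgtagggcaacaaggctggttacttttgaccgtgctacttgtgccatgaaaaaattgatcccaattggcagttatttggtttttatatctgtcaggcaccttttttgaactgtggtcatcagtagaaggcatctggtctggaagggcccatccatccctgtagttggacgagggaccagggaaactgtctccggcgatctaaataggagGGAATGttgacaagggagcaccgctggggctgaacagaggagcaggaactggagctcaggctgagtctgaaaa
Hdac11, chr6:91156565-91156864, plus strand: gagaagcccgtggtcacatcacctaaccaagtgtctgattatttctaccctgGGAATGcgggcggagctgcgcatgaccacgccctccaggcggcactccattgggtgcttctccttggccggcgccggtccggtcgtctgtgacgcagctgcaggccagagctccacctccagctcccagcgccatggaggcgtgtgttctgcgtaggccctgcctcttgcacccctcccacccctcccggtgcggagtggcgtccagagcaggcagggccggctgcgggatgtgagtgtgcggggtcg
Setd7, chr3:51560774-51561073, minus strand: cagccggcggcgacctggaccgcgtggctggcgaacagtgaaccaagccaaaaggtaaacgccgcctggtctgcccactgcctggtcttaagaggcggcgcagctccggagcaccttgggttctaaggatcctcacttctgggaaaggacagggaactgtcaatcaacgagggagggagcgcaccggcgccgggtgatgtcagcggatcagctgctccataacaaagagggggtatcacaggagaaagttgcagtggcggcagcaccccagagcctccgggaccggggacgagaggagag
The match begins 82 bases before the start in Hdac7, 23 bases before it in Hdac8 and 198 bases before it in Hdac11. Over all 58 promoters of the 43 matched genes, 12.1% held GGAATG, beside 14.7% of the 32851 promoters of the table. The E-box CACGTG, the site of MYC and MAX, was in 12.1% and 7.15%, at none of the 10 called genes and at 6 of the 30 matched genes that were tested and not called. ACGTG, the core of the hypoxia response element, which also lies within CACGTG, was in 20.7% and 19.6%. Median GC content was 62.7% in these promoters and 52.7% in the table, with a median of 25 and 7 CpG sites. A match describes the sequence and is not evidence of binding.

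Among the 8 H3K4 methyltransferase genes, all of which were tested, 2 rose in the colonies in both comparisons and none fell. Of all tested rows, 12.8% were called higher and 12.7% lower in both comparisons. The counts by enzyme type here and below each rest on few genes. Setd7, on chromosome 3 (51515319 to 51560879, minus strand, mm10), encodes an enzyme that adds a single methyl group to H3K4 in vitro and to many other proteins, YAP among them. It had 20.7, 23.3 and 21.8 FPKM in the YAP colonies, 3.73, 3.14 and 3.13 FPKM in the YAP-culture iPSCs and 5.57, 4.02 and 4.06 FPKM in the control iPSCs. Every colony library lay far above every iPSC library. The log2 fold change was 2.41 ± 0.13 (SE) against the YAP-culture iPSCs (limma, adjusted p = 6.9e-07) and 2.06 ± 0.13 against the control iPSCs (adjusted p = 1.72e-06). Kmt2e, on chromosome 5 (23434441 to 23504235, plus strand), encodes a SET protein with little or no known methyltransferase activity that binds methylated H3K4. It had 19.3, 18.5 and 20.3 FPKM in the colonies, 4.04, 3.55 and 3.90 FPKM in the YAP-culture iPSCs and 3.46, 4.83 and 3.17 FPKM in the control iPSCs. The groups of iPSCs overlapped each other, and neither reached the colonies. Its fold changes were 2.08 ± 0.13 (limma, adjusted p = 2.13e-06) and 2.09 ± 0.13 (adjusted p = 1.91e-06). Kmt2e overlaps the gene Srpk2 on the other strand by 972 bases, and the strand setting of the counting is not given in the sources used here.

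The large KMT2 enzymes and the SETD1 enzymes, which do most H3K4 methylation, were not called. Kmt2a averaged 11.8 ± 0.720 FPKM in the colonies, 5.52 ± 0.984 FPKM in the YAP-culture iPSCs and 6.13 ± 0.556 FPKM in the control iPSCs (SD, n = 3 each). Its colony libraries were above all iPSC libraries, with log2 fold changes of 0.98 and 0.84, just inside the threshold. Setd1b showed the same order at a lower level, 3.47 ± 0.335 FPKM in the colonies against 1.41 ± 0.112 FPKM in the YAP-culture iPSCs and 1.96 ± 0.287 FPKM in the control iPSCs. Kmt2c went the other way, with 5.17 ± 0.648 FPKM in the colonies and 6.97 ± 0.585 and 7.07 ± 0.629 FPKM in the YAP-culture and control iPSCs. Setd1a, the most abundant of these genes, had 12.7, 11.9 and 15.7 FPKM in the colonies, 12.6, 10.5 and 20.9 FPKM in the YAP-culture iPSCs and 22.3, 17.8 and 18.8 FPKM in the control iPSCs. The colonies lay below the control iPSCs and overlapped the YAP-culture iPSCs, whose replicate 3 stood apart from the other two. Kmt2b and Kmt2d had the same outlying replicate 3, with 10.5, 8.86 and 19.1 FPKM for Kmt2b and 2.63, 2.51 and 5.13 FPKM for Kmt2d in the YAP-culture iPSCs. The ratio of Kmt2e to Kmt2c was 3.80 ± 0.622 in the colonies, 0.551 ± 0.0323 in the YAP-culture iPSCs and 0.537 ± 0.0832 in the control iPSCs. This pair and the other ratios below were picked after their values were seen and are given with no test.

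None of the 4 H3K9 methyltransferase genes was called in any comparison, beside 30.3% of all tested rows against the YAP-culture iPSCs and 31.8% against the control iPSCs. Setdb1, which silences retroviral elements with TRIM28 in embryonic stem cells, was the highest, with 29.4, 29.9 and 34.3 FPKM in the colonies, 38.7, 31.3 and 28.9 FPKM in the YAP-culture iPSCs and 36.2, 37.6 and 31.5 FPKM in the control iPSCs. The 3 groups overlapped. Ehmt2 and Ehmt1 encode G9a and GLP, which act as a pair to mono- and dimethylate H3K9. Ehmt1 averaged 20.5 ± 2.10 FPKM in the colonies, 13.5 ± 2.31 FPKM in the YAP-culture iPSCs and 14.2 ± 0.969 FPKM in the control iPSCs, with the colonies above all iPSC libraries and log2 fold changes of 0.58 and 0.50. Ehmt2 averaged 25.7 ± 5.97, 15.2 ± 6.87 and 21.6 ± 3.18 FPKM in the same groups, which overlapped. Setdb2 was lower in the colonies without reaching the threshold, at 3.34 ± 0.171 FPKM against 5.87 ± 0.735 FPKM in the YAP-culture iPSCs and 5.26 ± 0.871 FPKM in the control iPSCs.

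Among the other 6 SET genes, Setd6 fell in the colonies in both comparisons and no gene rose, beside 12.7% and 12.8% of all rows that did so in both. Setd6, on chromosome 8 (95715881 to 95719010, plus strand), is known for methylating the NF-κB subunit RelA. It had 18.15, 21.98 and 26.11 FPKM in the colonies, 55.6, 55.9 and 63.1 FPKM in the YAP-culture iPSCs and 63.4, 68.1 and 58.6 FPKM in the control iPSCs. All colony libraries were below all iPSC libraries. Its log2 fold change was -1.37 ± 0.14 against the YAP-culture iPSCs (limma, adjusted p = 3.34e-05) and -1.49 ± 0.14 against the control iPSCs (adjusted p = 1.88e-05). Setd7 and Setd6 were therefore at a ratio of 1.01 ± 0.158 in the colonies, 0.0576 ± 0.00885 in the YAP-culture iPSCs and 0.0720 ± 0.0146 in the control iPSCs. Setd5 had the highest mean of the 6 over all 9 libraries, which rests on 1 colony library, and Setd6 and Kmt5a were above it in both iPSC groups. Setd5 had 132, 65.7 and 51.4 FPKM in the colonies, 46.9, 42.1 and 43.4 FPKM in the YAP-culture iPSCs and 41.4, 47.6 and 37.0 FPKM in the control iPSCs. The first colony library stood well apart from the other colonies, which were themselves above every iPSC library, and the gene was not called. Kmt5a, which monomethylates H4K20, Setd2, which trimethylates H3K36, and Setd3, which methylates actin, had log2 fold changes between -0.10 and 0.28 in the colony comparisons and overlapped the iPSCs. Setd4 averaged 2.61 ± 0.0598 FPKM in the colonies, 4.18 ± 1.42 FPKM in the YAP-culture iPSCs and 5.44 ± 0.923 FPKM in the control iPSCs and was not called.

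**Figure D2:**
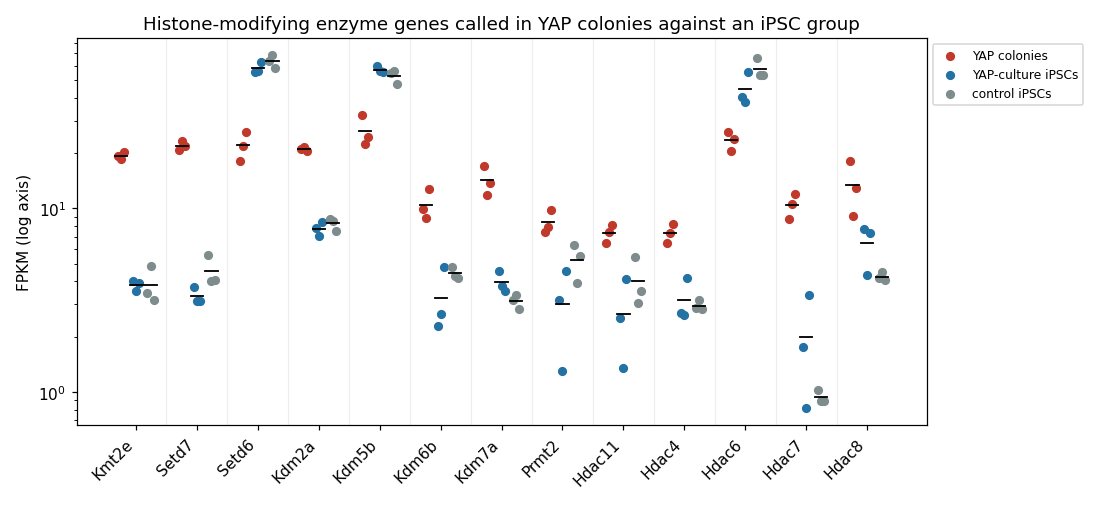
FPKM by library, on a log axis, of the 13 genes called in at least 1 comparison of the YAP colonies with an iPSC group. Points are libraries and black lines group means (n = 3 each); for Kmt2e, Setd7 and Kdm2a the colonies sit far above both iPSC groups, and for Setd6 they sit below both.

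Of the 19 lysine demethylase rows, 16 were tested, and Kdm2a, Kdm6b and Kdm7a rose in the colonies in both comparisons while Kdm5b fell against the YAP-culture iPSCs. Of all tested rows, 12.8% rose in both comparisons and 14.5% fell against the YAP-culture iPSCs. Kdm2a, on chromosome 19 (4314419 to 4398285, minus strand), removes H3K36 methylation and binds unmethylated CpG islands. It had 21.02, 21.59 and 20.44 FPKM in the colonies, 7.84, 7.05 and 8.40 FPKM in the YAP-culture iPSCs and 8.810, 8.531 and 7.498 FPKM in the control iPSCs. The 3 colony libraries were close together and well above the iPSCs, with log2 fold changes of 1.33 ± 0.10 (limma, adjusted p = 5.14e-06) and 1.25 ± 0.10 (adjusted p = 7.15e-06). Its paralog Kdm2b, known as the recruiter of a variant Polycomb complex to CpG islands, was not called, at 8.80 ± 1.06 FPKM in the colonies, 12.4 ± 1.62 FPKM in the YAP-culture iPSCs and 9.04 ± 0.715 FPKM in the control iPSCs. The ratio of Kdm2a to Kdm2b was 2.41 ± 0.323 in the colonies, 0.630 ± 0.0430 in the YAP-culture iPSCs and 0.917 ± 0.0595 in the control iPSCs.

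Kdm7a, on chromosome 6 (39136623 to 39206789, minus strand), removes methyl groups from H3K9 and H3K27. It had 17.1, 11.9 and 13.7 FPKM in the colonies, 4.56, 3.77 and 3.54 FPKM in the YAP-culture iPSCs and 3.17, 3.38 and 2.83 FPKM in the control iPSCs. The colonies were above both iPSC groups, which did not overlap each other, and the fold changes were 1.61 ± 0.14 (limma, adjusted p = 1.68e-05) and 1.87 ± 0.14 (adjusted p = 6.13e-06). Kdm6b, on chromosome 11 (69398508 to 69413675, minus strand), is the inducible H3K27 demethylase JMJD3, known to hinder reprogramming of mouse fibroblasts. It had 9.89, 8.87 and 12.7 FPKM in the colonies, 2.28, 2.65 and 4.79 FPKM in the YAP-culture iPSCs and 4.81, 4.29 and 4.18 FPKM in the control iPSCs. All colonies exceeded all iPSCs, with fold changes of 1.47 ± 0.22 (limma, adjusted p = 0.000372) and 1.07 ± 0.22 (adjusted p = 0.00236). The call against the control iPSCs was lost without the third colony library (log2 fold change 0.94). Kdm6a, the X-linked H3K27 demethylase UTX that is known to be needed for reprogramming, was not called, at 18.9 ± 1.85, 13.5 ± 2.39 and 9.58 ± 0.892 FPKM in the colonies, the YAP-culture iPSCs and the control iPSCs.

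The H3K4 demethylases of the KDM5 family differed in direction. Kdm5b, on chromosome 1 (134560171 to 134635285, plus strand), known in mouse embryonic stem cells for supporting self-renewal, had 32.2, 22.6 and 24.6 FPKM in the colonies, 59.6, 55.8 and 55.4 FPKM in the YAP-culture iPSCs and 54.4, 56.4 and 47.9 FPKM in the control iPSCs. All colonies were below all iPSCs. Its log2 fold change was -1.09 ± 0.14 against the YAP-culture iPSCs (limma, adjusted p = 0.000141), and -0.99 ± 0.14 against the control iPSCs (adjusted p = 0.00026), just short of the fold threshold. Without the second colony library the call against the YAP-culture iPSCs was lost, which left Setd6 as the 1 gene called lower there. Kdm5c was higher in the colonies without being called, at 44.4 ± 1.06 FPKM against 22.2 ± 4.44 FPKM in the YAP-culture iPSCs and 23.2 ± 2.13 FPKM in the control iPSCs (log2 fold changes 0.98 and 0.91). The ratio of Kdm5c to Kdm5b was 1.72 ± 0.333 in the colonies, 0.392 ± 0.0879 in the YAP-culture iPSCs and 0.439 ± 0.0174 in the control iPSCs. Kdm5a averaged 9.19 ± 0.297, 9.21 ± 0.954 and 8.04 ± 1.05 FPKM in these groups.

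The KDM4 family, which acts on H3K9 and H3K36, differed in direction in the same way, below the fold threshold. Kdm4a averaged 34.8 ± 2.71 FPKM in the colonies, 18.33 ± 3.76 FPKM in the YAP-culture iPSCs and 18.04 ± 1.37 FPKM in the control iPSCs. Kdm4c averaged 11.7 ± 0.634 FPKM in the colonies, 23.98 ± 0.903 FPKM in the YAP-culture iPSCs and 18.9 ± 1.65 FPKM in the control iPSCs. In both genes the colonies did not overlap the iPSCs, and the ratio of Kdm4a to Kdm4c was 2.99 ± 0.353 in the colonies, 0.769 ± 0.190 in the YAP-culture iPSCs and 0.957 ± 0.0858 in the control iPSCs. Kdm4b, Kdm8, Kdm1b and Kdm3a overlapped between the colonies and both iPSC groups. Kdm1a, the flavin-dependent H3K4 demethylase LSD1 of the CoREST complex and the highest demethylase, had 64.9, 60.8 and 65.2 FPKM in the colonies, 89.9, 84.6 and 85.4 FPKM in the YAP-culture iPSCs and 92.5, 94.7 and 79.7 FPKM in the control iPSCs. The colonies were lower than every iPSC library, with log2 fold changes of -0.44 ± 0.10 and -0.47 ± 0.10, and the gene was not called. Kdm3b, an H3K9 demethylase, was at 14.2 ± 0.732 FPKM in the colonies, against 23.1 ± 3.59 FPKM in the YAP-culture iPSCs and 19.98 ± 1.48 FPKM in the control iPSCs, and was likewise not called.

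Of the 8 arginine methyltransferase genes, 7 were tested, and Prmt2 alone was called, in 1 comparison, in which 30.3% of all tested rows were called. Prmt1, which makes most asymmetric dimethylarginine in mammalian cells, was the highest of all 56 genes. It had 301, 420.4 and 454 FPKM in the colonies, 206, 189 and 311 FPKM in the YAP-culture iPSCs and 342, 302 and 291 FPKM in the control iPSCs. The groups overlapped, and the gene was not called. Prmt2, on chromosome 10 (76207222 to 76237865, minus strand), is a weak methyltransferase known as a nuclear receptor coactivator. It had 7.40, 7.95 and 9.80 FPKM in the colonies, 3.18, 1.30 and 4.56 FPKM in the YAP-culture iPSCs and 6.35, 3.93 and 5.50 FPKM in the control iPSCs. The colonies exceeded all iPSC libraries, and the YAP-culture iPSCs spread widely around a low second library. Prmt2 rose by 1.31 ± 0.30 on the log2 scale against the YAP-culture iPSCs (limma, adjusted p = 0.00506), and the call was lost without that second library (log2 fold change 0.95). Prmt5, which makes symmetric dimethylarginine and is needed for pluripotency in the mouse embryo, Prmt7 and Prmt9 were lower in the colonies without being called. They averaged 54.0, 20.8 and 6.84 FPKM in the colonies, 76.4, 34.7 and 10.3 FPKM in the YAP-culture iPSCs and 71.9, 40.8 and 12.4 FPKM in the control iPSCs.

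Of the 11 deacetylase genes, 10 were tested. Hdac4 and Hdac7 rose in both comparisons, Hdac11 rose against the YAP-culture iPSCs, Hdac8 rose against the control iPSCs, and Hdac6 fell against the control iPSCs. Of all tested rows, 15.8% rose and 14.5% fell against the YAP-culture iPSCs, and 14.9% and 17.0% against the control iPSCs. Hdac7, on chromosome 15 (97792664 to 97844502, minus strand), encodes a class IIa enzyme that shuttles between nucleus and cytoplasm, represses MEF2 factors and is known for its role in vessels and thymocytes. It had 8.774, 10.62 and 11.98 FPKM in the colonies, 1.77, 0.819 and 3.39 FPKM in the YAP-culture iPSCs and 1.03, 0.897 and 0.892 FPKM in the control iPSCs. The colonies were the only group with more than 5 FPKM in any library, and the third YAP-culture iPSC library was above the other iPSCs. The fold changes were 2.02 ± 0.28 (limma, adjusted p = 0.000253) and 2.55 ± 0.28 (adjusted p = 5.69e-05), the larger of which was the largest of the 51 genes against the control iPSCs. The endothelial markers differed in direction. Tek averaged 42.5 FPKM in the colonies, 3.76 FPKM in the YAP-culture iPSCs and 2.80 FPKM in the control iPSCs. Pecam1 averaged 0.173, 32.4 and 33.9 FPKM in the same order, and Vwf 0.151, 5.02 and 4.82 FPKM. Cdh5, at 0.0388, 0.0177 and 0.00963 FPKM, and Kdr, at 0.0433, 0.0235 and 0.0355 FPKM, were near 0 in all groups.

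Hdac4, another class IIa gene, on chromosome 1 (91928779 to 92195699, minus strand), had 6.51, 7.37 and 8.24 FPKM in the colonies, 2.71, 2.62 and 4.16 FPKM in the YAP-culture iPSCs and 2.85, 3.17 and 2.82 FPKM in the control iPSCs. The colonies were above all iPSCs, with fold changes at the threshold of 1.02 ± 0.15 (limma, adjusted p = 0.000439) and 1.08 ± 0.15 (adjusted p = 0.000305). The call against the YAP-culture iPSCs was lost under 7 alternatives, among them leaving out the third colony library or the first or second YAP-culture iPSC library. The call against the control iPSCs was lost under 2, a pseudocount of 5 (log2 fold change 0.64) and quantile normalization (0.99). Hdac5 was not called, at 12.99 ± 1.88, 7.20 ± 1.46 and 10.5 ± 2.01 FPKM in the colonies, the YAP-culture iPSCs and the control iPSCs. Summed over its 4 genes, class IIa stood at 31.3 ± 4.14 FPKM in the colonies, 12.6 ± 3.56 FPKM in the YAP-culture iPSCs and 14.6 ± 1.87 FPKM in the control iPSCs. Hdac11, the class IV enzyme, known to remove fatty acyl groups from lysine, had 6.45, 7.42 and 8.14 FPKM in the colonies, 2.51, 1.35 and 4.14 FPKM in the YAP-culture iPSCs and 5.45, 3.04 and 3.54 FPKM in the control iPSCs. The colonies exceeded all iPSCs, whose groups overlapped. It rose by 1.25 ± 0.28 against the YAP-culture iPSCs (limma, adjusted p = 0.00441), a call lost without their second library (log2 fold change 0.97), and differed by 0.76 ± 0.28 from the control iPSCs.

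**Figure D3:**
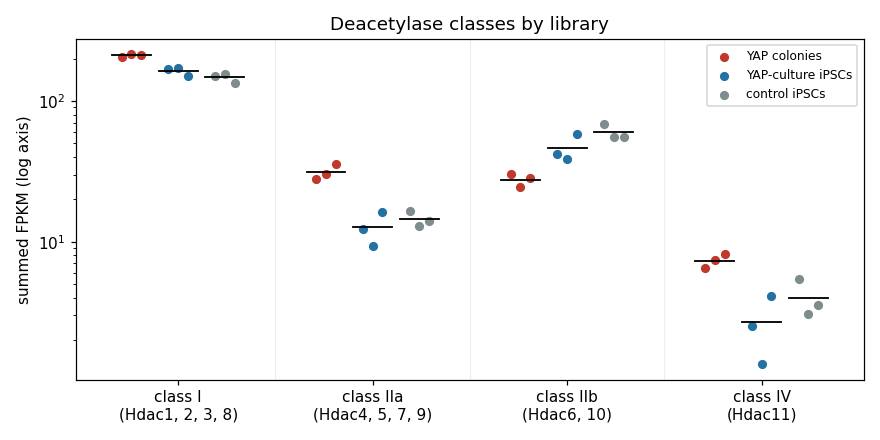
Summed FPKM of the deacetylase genes of each class by library, on a log axis, with group means as black lines (n = 3 each). The class IIa sum is 31.3 FPKM in YAP colonies against 12.6 and 14.6 FPKM in the iPSC groups, and the class IIb sum is 27.6 FPKM in YAP colonies against 46.4 and 60.1 FPKM.

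Class I holds Hdac1, Hdac2 and Hdac3, the nuclear deacetylases of the SIN3, NuRD and NCOR complexes, and Hdac8, and these 4 genes together stood at 211 ± 4.89 FPKM in the colonies, 164 ± 11.2 FPKM in the YAP-culture iPSCs and 147 ± 10.7 FPKM in the control iPSCs. Hdac2, the highest deacetylase, had 116, 129 and 120.5 FPKM in the colonies, 97.2, 108 and 77.6 FPKM in the YAP-culture iPSCs and 69.7, 79.3 and 66.8 FPKM in the control iPSCs. The colonies were above both iPSC groups, which overlapped through the third YAP-culture library, and Hdac2 was not called (log2 fold changes 0.38 and 0.76). Hdac1 averaged 23.9 ± 4.26 FPKM in the colonies, 26.4 ± 1.26 FPKM in the YAP-culture iPSCs and 33.0 ± 3.26 FPKM in the control iPSCs. The ratio of Hdac2 to Hdac1, close paralogs that replace each other in these complexes, was 5.21 ± 0.954 in the colonies, 3.59 ± 0.747 in the YAP-culture iPSCs and 2.19 ± 0.256 in the control iPSCs. Hdac3, the enzyme of the NCOR complexes, averaged 52.0 ± 2.89, 36.9 ± 1.85 and 38.0 ± 2.88 FPKM in the same groups and was not called.

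Class IIb was the class that stood lower in the colonies, through Hdac6. Hdac6 is the cytoplasmic deacetylase of tubulin and lies on the X chromosome (7930120 to 7947889, minus strand). It had 26.2, 20.5 and 23.8 FPKM in the colonies, 40.4, 37.8 and 55.5 FPKM in the YAP-culture iPSCs and 66.0, 53.4 and 53.6 FPKM in the control iPSCs. All colonies were below all iPSCs. Its log2 fold change was -0.88 ± 0.17 against the YAP-culture iPSCs and -1.26 ± 0.17 against the control iPSCs, and the second passed the fold threshold (limma, adjusted p = 0.000194). Hdac10, the other class IIb gene, encodes a polyamine deacetylase and was not called, at 4.04 ± 0.368 FPKM in the colonies, 1.80 ± 1.14 FPKM in the YAP-culture iPSCs and 2.41 ± 0.380 FPKM in the control iPSCs. Hdac8, the deacetylase of the cohesin subunit SMC3, is also X-linked (102284639 to 102505359, minus strand). It had 18.21, 9.043 and 12.99 FPKM in the colonies, 7.70, 4.32 and 7.35 FPKM in the YAP-culture iPSCs and 4.18, 4.50 and 4.07 FPKM in the control iPSCs. The colonies were above all iPSCs but spread widely among themselves, with fold changes of 0.93 ± 0.25 and 1.41 ± 0.25 (limma, adjusted p = 0.0117 and 0.00127).

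The 4 X-linked genes of the set did not differ in 1 direction. Kdm5c and Kdm6a, both known to escape X inactivation in the mouse, and Hdac8 were higher in the colonies than in every iPSC library, and Hdac6 was lower. Kdm6a differed from the YAP-culture iPSCs by 0.46 ± 0.14 and from the control iPSCs by 0.91 ± 0.14 on the log2 scale, under the fold threshold. Xist, the RNA that coats an inactive X chromosome, averaged 166 ± 32.2 FPKM in the colonies, 1.09 ± 0.493 FPKM in the YAP-culture iPSCs and 0.502 ± 0.0638 FPKM in the control iPSCs (SD, n = 3 each). Its part in the levels of the 4 genes was not tested.

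**Figure D4:**
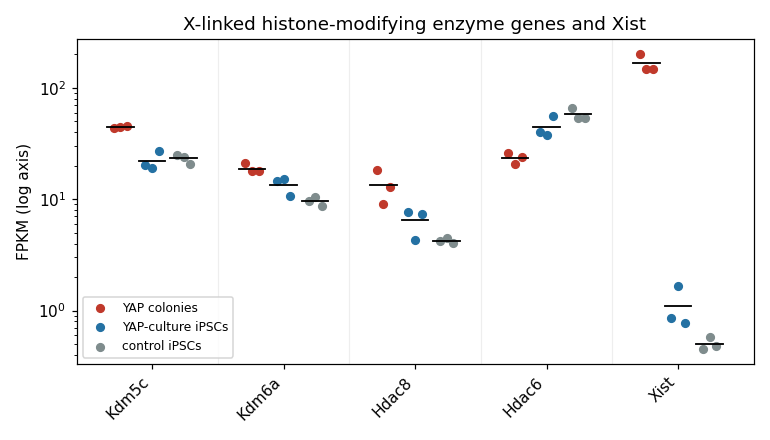
FPKM by library, on a log axis, of the 4 X-linked genes and of Xist, with group means as black lines (n = 3 each). Kdm5c, Kdm6a and Hdac8 are higher and Hdac6 lower in YAP colonies than in every iPSC library, and Xist averages 166 FPKM in YAP colonies against 1.09 and 0.502 FPKM in the iPSC groups.

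Of the 51 tested genes, 0 were called between the YAP-culture iPSCs and the control iPSCs by limma, beside 1.39% of all tested rows. At an unadjusted p under 0.05, 10 differed (19.6%, against 30.4% of all rows), and at an adjusted p under 0.05 and any fold 0 did (4.56% of all rows). This comparison is also the test of whether a gene's colony difference depends on which iPSC group it is set against. For Hdac6, Hdac8, Hdac11, Prmt2 and Kdm5b, called against 1 iPSC group only, the adjusted p between the iPSC groups was 0.166, 0.233, 0.255, 0.154 and 0.612, so a different response was not shown. The largest differences with all libraries and no GC correction were Prmt2, at 3.01 ± 1.64 FPKM in the YAP-culture iPSCs and 5.26 ± 1.23 FPKM in the control iPSCs (log2 fold change -0.72 ± 0.30), and Ehmt2, at 15.2 ± 6.87 and 21.6 ± 3.18 FPKM (-0.55 ± 0.29). Both moved with the libraries and the correction used: over the alternatives run, the log2 fold change of Prmt2 lay between -0.997 (without YAP-culture iPSC replicate 3) and -0.36 (without replicate 2), and that of Ehmt2 between -0.91 (without replicate 3 of both iPSC groups) and -0.02 (with the GC correction). The smallest unadjusted p belonged to Kdm4c, at 23.98 ± 0.903 FPKM in the YAP-culture iPSCs and 18.9 ± 1.65 FPKM in the control iPSCs (log2 fold change 0.33 ± 0.09, limma adjusted p = 0.0804). Hdac7 differed by 0.53 ± 0.28, and by 0.21 without YAP-culture iPSC replicate 3. With FPKM corrected for the GC content of each gene's longest transcript, Hdac7 was called higher in the YAP-culture iPSCs (log2 fold change 1.04).

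The YAP-culture iPSC libraries did not vary as 1 group. The median coefficient of variation of the 51 genes was 15.8% among them, against 9.82% among the colonies and 9.06% among the control iPSCs. The largest was 65.2%, for Hdac7, in the YAP-culture iPSCs, 51.8%, for Setd5, in the colonies and 31.7%, for Hdac11, in the control iPSCs. In the first and second YAP-culture iPSC libraries, the difference of a gene from the control iPSC mean ran against the GC content of its longest transcript, with a Pearson correlation of -0.71 and -0.69 over the 51 genes. In the third library the correlation was 0.14. Over all tested rows with a known GC content the values were -0.52, -0.50 and -0.05. Among the control libraries, measured against their own mean, the 51 genes gave 0.58, -0.63 and 0.27, and all such rows gave 0.17, -0.22 and 0.03. Differences from a group's own mean cancel, so the control correlations cannot all have the same sign. These are descriptions across genes that share a library and a base composition, and the genes are not independent. The median absolute difference of the 51 genes from the control mean was 0.30, 0.28 and 0.13 on the log2 scale in the 3 YAP-culture libraries. The second YAP-culture iPSC library was the lowest of its group in 33 of 51 genes and in 15 after median-ratio scaling, and the third control library was the lowest of its group in 37 and in 16.

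**Figure D5:**
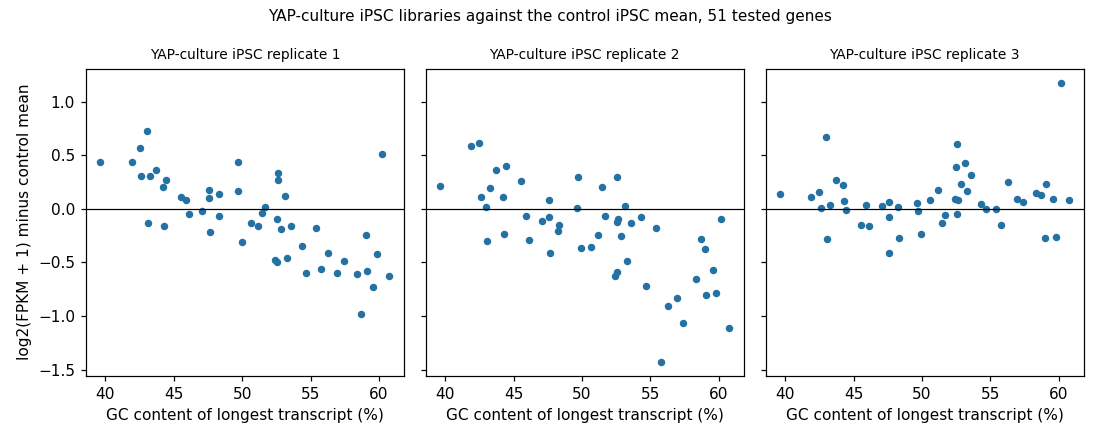
Difference of log2(FPKM + 1) from the control iPSC mean of each of the 51 tested genes (points), against the GC content in percent of its longest transcript, in the 3 YAP-culture iPSC libraries. Genes of high GC content mostly lie below the control mean in the first and second library (r = -0.71 and -0.69) and not in the third (r = 0.14).

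As a profile over the 51 genes, the colony libraries correlated with each other at a median r of 0.979 and with the iPSC libraries at a median of 0.826 for the YAP-culture and 0.825 for the control iPSCs. The iPSC libraries correlated across their 2 groups at a median of 0.978. Summed over all 56 genes, FPKM was 1488 ± 64.3 in the colonies, 1263 ± 112 in the YAP-culture iPSCs and 1345 ± 94.0 in the control iPSCs. The genes lie on 20 chromosomes.

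The filter left out 5 rows. Prmt8, a brain-enriched relative of Prmt1, had 0.129, 0.0470 and 0.0754 FPKM in the colonies, 1.26, 1.51 and 1.07 FPKM in the YAP-culture iPSCs and 0.883, 1.77 and 0.801 FPKM in the control iPSCs. It was lower in every colony library than in any iPSC library. Kdm4dl, which the annotation calls an unprocessed pseudogene, was listed at 0 in the 3 colony libraries, at 1.61, 0.868 and 1.83 FPKM in the YAP-culture iPSCs and at 0.865, 1.32 and 1.18 FPKM in the control iPSCs. Its reads may be split with its relative Kdm4d. Hdac9, a class IIa gene, averaged 0.521 ± 0.0877 FPKM in the colonies, 0.294 ± 0.0841 FPKM in the YAP-culture iPSCs and 0.221 ± 0.105 FPKM in the control iPSCs. Kdm4d was at most 0.0618 FPKM in any library, and Kdm6bos, antisense to Kdm6b, was listed at 0 throughout.

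Genes that work with these enzymes were described from 7 lists of 102 symbols, of which 100 were found and 94 were tested. Against the YAP-culture iPSCs, 12 were called higher and 10 lower in the colonies, and against the control iPSCs 14 were called higher and 13 lower. These are 12.8% and 10.6% of the 94, beside 15.8% and 14.5% of all tested rows, and 14.9% and 13.8%, beside 14.9% and 17.0%, with medians of 0.01 and -0.13 on the log2 scale. Among 27 corepressor subunits of HDACs and KDM1A, 6 rose and 1 fell against the YAP-culture iPSCs, and 6 rose and 2 fell against the control iPSCs. The shares were 22.2% higher and 3.70% lower against the YAP-culture iPSCs (15.8% and 14.5% of all rows), and 22.2% and 7.41% against the control iPSCs (14.9% and 17.0%). Chd3, a helicase of the NuRD complex, averaged 38.4 ± 2.38 FPKM in the colonies, 4.22 ± 0.833 FPKM in the YAP-culture iPSCs and 4.29 ± 0.212 FPKM in the control iPSCs (log2 fold changes 2.93 and 2.90, limma adjusted p = 1.8e-07 and 1.86e-07). Mta3, another NuRD subunit, fell to 16.5 ± 2.84 FPKM in the colonies, against 49.4 ± 16.5 FPKM in the YAP-culture iPSCs and 70.6 ± 8.17 FPKM in the control iPSCs. The CoREST scaffolds, which hold Kdm1a and Hdac1 or Hdac2 together, differed in direction. Rcor1 rose to 21.3 ± 0.647 FPKM in the colonies, against 7.51 ± 1.32 and 7.01 ± 0.712 FPKM in the YAP-culture and control iPSCs, and Rcor2, known as the form prominent in embryonic stem cells, averaged 13.8 ± 1.24 FPKM in the colonies, 25.4 ± 6.14 FPKM in the YAP-culture iPSCs and 46.7 ± 5.27 FPKM in the control iPSCs, and it fell against the control iPSCs.

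The core subunit Ash2l, shared by all KMT2 and SETD1 complexes, was the 1 of 12 tested subunits called, and it fell to 40.3 ± 2.22 FPKM in the colonies, against 189 ± 5.08 FPKM in the YAP-culture iPSCs and 167 ± 13.5 FPKM in the control iPSCs (log2 fold changes -2.20 and -2.02, limma adjusted p = 1.97e-07 and 3.04e-07). The 1 call is 8.33% of that list, beside 14.5% and 17.0% of all rows called lower. Among 12 histone acetyltransferases, the enzymes opposed to HDACs, 0 rose and 3 fell against the YAP-culture iPSCs, and Crebbp alone rose and 3 fell against the control iPSCs. The 3 that fell are 25% of the list, beside 14.5% and 17.0% of all rows called lower, and 1 of them is Ncoa3, which was listed at 0 in all colony libraries, where a 0 can be a failed estimate. Hat1, which acetylates new histone H4, averaged 61.0 ± 7.58 FPKM in the colonies, 385 ± 58.5 FPKM in the YAP-culture iPSCs and 374 ± 17.8 FPKM in the control iPSCs. Kat6b averaged 5.12 ± 0.941, 40.6 ± 2.31 and 35.1 ± 3.74 FPKM in the same groups. Crebbp averaged 8.76 ± 1.18 FPKM in the colonies, 3.99 ± 0.392 FPKM in the YAP-culture iPSCs and 3.35 ± 0.331 FPKM in the control iPSCs. Among 19 other lysine methyltransferases, Whsc1, an H3K36 methyltransferase, Smyd2 and Ash1l rose in both comparisons. They are 15.8% of the list, close to the 15.8% and 14.9% of all rows called higher. Smyd2 averaged 66.1 ± 3.93 FPKM in the colonies, 15.2 ± 4.32 FPKM in the YAP-culture iPSCs and 22.4 ± 4.25 FPKM in the control iPSCs. Whsc1 averaged 28.3 ± 3.14 FPKM in the colonies, 6.66 ± 1.84 FPKM in the YAP-culture iPSCs and 8.13 ± 0.730 FPKM in the control iPSCs. Against the control iPSCs, Smyd4 and Suv420h2 fell, 10.5% of the list beside 17.0% of all rows called lower. Suv420h2 averaged 14.5 ± 0.731 FPKM in the colonies, 24.2 ± 11.6 FPKM in the YAP-culture iPSCs and 35.3 ± 4.48 FPKM in the control iPSCs.

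Among 7 tested demethylase relatives and other arginine methyltransferases, Phf2, an H3K9 demethylase, rose to 13.8 ± 3.05 FPKM in the colonies, against 1.47 ± 0.460 FPKM in the YAP-culture iPSCs and 1.82 ± 0.179 FPKM in the control iPSCs. Jarid2, a catalytically inactive Jumonji protein of the Polycomb complex PRC2, fell to 19.5 ± 3.70 FPKM in the colonies, against 42.2 ± 4.76 and 46.5 ± 3.41 FPKM in the YAP-culture and control iPSCs. Of this list, 14.3% rose and 14.3% fell against the YAP-culture iPSCs, beside 15.8% and 14.5% of all rows. Against the control iPSCs, 14.3% rose and 28.6% fell, beside 14.9% and 17.0%. Jmjd6 was listed at 0 in all libraries of YAP colonies and YAP-culture iPSCs and averaged 48.3 ± 3.68 FPKM in the control iPSCs, which made it the 1 gene of the lists called between the iPSC groups. It is also among the listed genes called lower in the colonies against the control iPSCs. Both calls rest on the zeros, and a 0 can be a failed estimate. Of 12 partners of SETDB1 and EHMT, 1 rose and 3 fell against the YAP-culture iPSCs. These are 8.33% and 25% of the list, beside 15.8% and 14.5% of all rows. Against the control iPSCs, 2 rose and 2 fell, 16.7% each way, beside 14.9% and 17.0% of all rows. Mphosph8 and Fam208a, subunits of the HUSH silencing complex, fell in both comparisons. Mphosph8 averaged 20.3 ± 1.41 FPKM in the colonies, 60.2 ± 13.3 FPKM in the YAP-culture iPSCs and 43.8 ± 3.64 FPKM in the control iPSCs. Pphln1, also of that complex, rose against the control iPSCs. Pphln1 averaged 23.1 ± 1.67 FPKM in the colonies, 11.4 ± 1.24 FPKM in the YAP-culture iPSCs and 9.49 ± 0.611 FPKM in the control iPSCs. Wiz, the zinc finger partner of the EHMT pair, rose to 19.6 ± 3.44 FPKM in the colonies, against 5.61 ± 3.06 and 8.09 ± 0.884 FPKM in the YAP-culture and control iPSCs. Of 5 tested sirtuins, the NAD-dependent deacetylases, 1 rose and 1 fell in each comparison. Of all rows, 15.8% rose and 14.5% fell against the YAP-culture iPSCs, and 14.9% and 17.0% against the control iPSCs. Sirt1 fell to 6.61 ± 0.390 FPKM in the colonies, against 30.4 ± 6.17 FPKM in the YAP-culture iPSCs and 22.3 ± 1.09 FPKM in the control iPSCs. Sirt2 rose to 23.97 ± 1.26 FPKM in the colonies, against 8.70 ± 2.38 and 9.54 ± 2.05 FPKM in the YAP-culture and control iPSCs.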

How the data were processed

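Poly(A) RNA was sequenced from 9 libraries with a stranded mRNA kit, per the labels' protocols. The authors deposited FPKM values per gene, and TopHat, Cufflinks and the build mm10 are named in the submitters' processing notes. Their versions, the read depth and the strand setting are not given in the sources used here, so genes that overlap on opposite strands are uncertain. Besides Kmt2e, these include Kdm1a, which overlaps Luzp1 (13.2 to 17.4 FPKM) by 4241 bases, and Kdm1b, which overlaps Tpmt (5.70 to 15.8 FPKM) by 1239 bases. FPKM values are not counts, and no count test was run.

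Of 48640 rows, the 13808 that averaged 1 FPKM or more were taken as log2(FPKM + 1) and fitted with limma 3.58.1 in R 4.3.3, with 3 group means and a trended variance prior. P-values were two-sided and Benjamini-Hochberg adjusted over all 13808 rows. Calls needed an adjusted p under 0.05 and a log2 fold change of 1 or more in size. The fit was first tested on simulated data. The members and lists were chosen with earlier results of these data known. Values of every library were given for genes called in a comparison and for the highest gene of each enzyme type, and of the related lists the called genes with the largest change each way were named; other related genes, the paralog ratios and other values given in full were chosen after they were seen. One gene with such a name is not reported here.

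All 56 gene IDs matched GENCODE M21, and coordinates are 1-based mm10 positions. Replicate numbers did not pair the libraries: same-numbered libraries of different groups correlated in their deviations from the group means at -0.14 to 0.19. The alternatives changed the pseudocount, the filter, the scaling, the variance prior, the groups fitted or a replicate block, or left out each library. A GC correction and a fit without the third library of each iPSC group were added after seeing the data.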

Additional observations from a re-analysis of the deposited data

How the results depend on the processing

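No fold change of the 51 tested genes that was called reversed under any alternative run. Of the 11 calls against the YAP-culture iPSCs and the 10 against the control iPSCs, 6 and 6 kept their side of the threshold wherever the gene was tested. Hdac7, among the 6 in both comparisons, averaged 4.46 FPKM and was not tested under the filter of 5 FPKM. The same holds for Hdac4 and Hdac11, at 4.50 and 4.67 FPKM. Against the YAP-culture iPSCs, a pseudocount of 0.1 gave 17 calls (14 higher), a pseudocount of 5 gave 6 (5 higher, 1 lower), no filter gave 4 lower, and leaving out the third library of each iPSC group, chosen after seeing the data, gave 18 (15 higher). Against the control iPSCs, a pseudocount of 5 gave 6 calls (4 higher), and a pseudocount of 0.1 gave 4 lower. Leaving out each library in turn gave 8 to 18 calls against the YAP-culture iPSCs (6 to 15 higher, 1 to 3 lower), 10 to 11 against the control iPSCs (8 higher throughout, 2 to 3 lower) and 0 between the iPSC groups. The 18 came without YAP-culture iPSC replicate 3. The GC correction, also added after seeing the data, gave 1 call, higher, between the iPSC groups, which was Hdac7. With the replicate block the counts were 11, 10 and 0, as without it, though the numbers did not pair the libraries. The pseudocount of 5 shrinks the fold change of low genes by its construction, and the pseudocount of 0.1 enlarges it. The 4 lower calls with no filter were Setd6, Kdm5b and the added rows Prmt8 and Kdm4dl (log2 fold changes -1.07 and -1.26). Those added rows are not among the 51 tested genes. The cause of the other changes was not tested. Over all tested rows, 4184, 4396 and 192 were called in the main fit. With each library left out in turn, the ranges over all rows were 4072 to 4421, 4225 to 4421 and 52 to 1048. The counts over all rows under the other alternatives are not given here, so the calls under those have no background beside them. Depth is unknown, and 3 libraries a group limit the precision.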
